A study of Mus musculus with 6 samples.

Results

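The baseline transcriptome of ureteric bud cells was described from the 3 control libraries of a series of 6. The cells were ureteric bud lineage cells of mouse embryos at stage E16.5, isolated by fluorescence-activated sorting. The control embryos were Hoxb7Cre-GFP+, Ash2l F/+: they carried a transgene in which Hoxb7 sequences drive a Cre-GFP fusion, and a single floxed allele of Ash2l beside an intact one. They received no treatment. The control cells therefore carried the transgene and could have lost 1 copy of Ash2l, so they are not wild type. The members were all libraries labelled as control, numbered by the submitters as biological replicates 1, 2 and 3. Whether each came from 1 embryo or from several, and whether they share a litter or a sorting day, the labels leave unsaid. The spread between libraries may therefore be partly technical. No comparison with the other 3 libraries was made.

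The ureteric bud is an epithelial outgrowth of the nephric duct that branches into the collecting system of the kidney. Its tips hold dividing progenitors that respond to GDNF from the surrounding mesenchyme through RET, a tyrosine kinase, and the co-receptor GFRA1, and they release WNT11. Cells that leave the tips form the stalk and later the collecting duct, whose principal cells reabsorb water and sodium and whose intercalated cells move acid and base.

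The libraries held 10359475 to 10538314 counts, and both deposited tables list 17189 genes. Levels are given as FPKM, the counts scaled by gene length and by library total, so that genes of different length can be compared. A value with ± is the mean and SD over n = 3 libraries. Control replicate 3 stood apart in globin RNA: the 7 erythroid markers together had 7, 11 and 4132 counts in replicates 1, 2 and 3. The last is 0.0393% of that library (95% Wilson interval 0.0381 to 0.0405, counting error only). Control replicate 1 stood apart in immediate early and stress genes, whose summed FPKM was 3434 there against 6612 and 7146 in replicates 2 and 3. Both differences are described with the genes they touch, and their part in the other results was not tested.

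A gene was counted as expressed at 1 FPKM or more in each control library. By that rule 10453 of the 17189 listed genes were expressed (60.8%), and their median level was 13.6 FPKM. A level of at least 100 FPKM in each library was reached by 842 genes, and 17 genes reached 1000. The 100 highest genes held 18.3%, 18.4% and 19.0% of the summed FPKM of replicates 1, 2 and 3. Another 1436 listed genes had no count in any control library. The lowest total of a listed gene over all 6 libraries was 1 count, so these genes are listed through the other libraries. Genes without a count in the whole series are not listed, so both shares depend in part on libraries not described here. Each count of expressed list members below is to be read beside the 60.8% of all listed genes. Each count of members without a count is to be read beside these 1436 of 17189.

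The 15 highest genes were mostly genes that every cell uses, and Ccn1, Id3, Calb1 and Fos stood among them. The iron-storage gene Ftl1 led with 2926 ± 199.5 FPKM, followed by the cytoskeletal gene Actb with 2389 ± 258 FPKM. Ftl1 belongs to a family with near-identical copies, so its count is uncertain. Ccn1, which encodes a matricellular protein, came next at 1377, 2181 and 2608 FPKM in replicates 1, 2 and 3. Id3, an inhibitor of basic helix-loop-helix factors, ranked ninth at 1137, 1658 and 1450.3 FPKM. Replicate 1 was lowest for both genes. Calb1, the calcium-binding protein calbindin that marks the ureteric epithelium, ranked 11th, and the AP-1 subunit Fos ranked 15th. Chromatin and metabolic genes filled most of the other places, among them Hmgn2 (1947 FPKM), Eno1 (1624 FPKM) and Ldhb (1238 FPKM).

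All 6 markers of the ureteric bud were expressed, which fits the label of the sort. Calb1 was at 1234, 1129 and 1366 FPKM in replicates 1, 2 and 3, the highest of the 6. Wnt11, the WNT ligand of the tip, followed at 524, 527 and 578 FPKM and ranked 62 among all genes. Both stood above the other 4 markers in every library. Gata3, a transcription factor of the nephric duct and its derivatives, was at 181, 205 and 174 FPKM. Gfra1 was at 149, 171 and 181 FPKM. Hoxb7, the gene whose regulatory sequence gives the transgene its name, was at 152, 141 and 149 FPKM. In the order of means, Gata3 overlapped Gfra1 and Gfra1 overlapped Hoxb7, so these neighbours were not separated beyond their spread. Ret was the lowest at 72.1, 82.2 and 101 FPKM, below Hoxb7 in every library. The ratio of Gfra1 to Ret was 2.07, 2.08 and 1.79, so the co-receptor transcript exceeded that of the receptor in each library.

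All 20 ureteric lineage genes were expressed, from 1.48 FPKM for Tfap2a to 1243 FPKM for Calb1, with a median of 37.2. Epithelial structure genes came next after Calb1. Keratin genes Krt8 and Krt18 averaged 847 ± 115 and 785 ± 138 FPKM, and the adhesion gene Epcam averaged 669 ± 24.5 FPKM. The duct regulators spanned a wide range: Pax8 averaged 93.6 ± 8.34 FPKM, Lhx1 10.95 ± 0.377 and Pax2 4.52 ± 0.549 FPKM. Pax8 was therefore 17.8, 26.0 and 19.4 times as abundant per length as its close relative Pax2 in replicates 1, 2 and 3. None of the 20 genes had a 2-fold range, meaning that the highest library had at least 2 times the FPKM of the lowest. Over all expressed genes 4.17% had such a range.

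**Figure D1:**
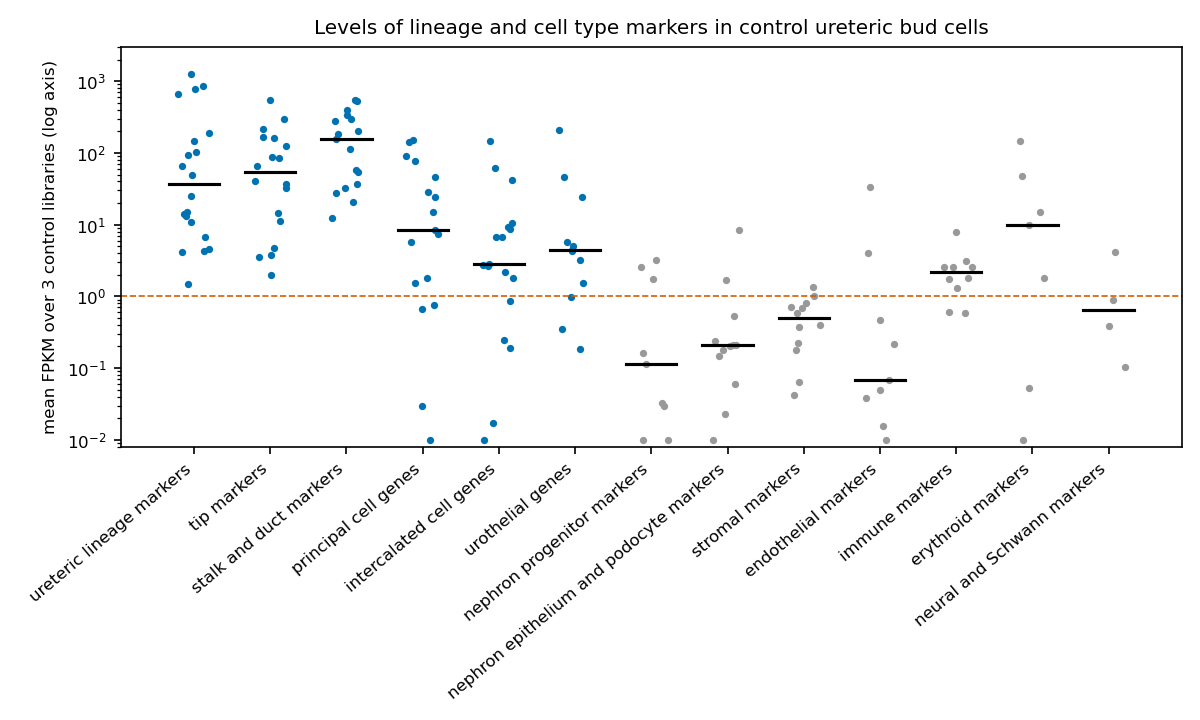
Mean FPKM over the 3 control libraries (log axis) of each gene in 13 marker lists; blue points are ureteric lists, grey points are lists of other cell types, black bars are medians over listed genes, the dashed line is 1 FPKM, and values under 0.01 are drawn at 0.01. The stalk and duct list has the highest median (157.9 FPKM), the lists of nephron, stromal and endothelial genes have medians under 1 FPKM, and the erythroid points come from replicate 3.

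All 18 tip genes were expressed, with a median of 53.5 FPKM. Besides Wnt11, Gfra1 and Ret they were led by Spry1, a feedback inhibitor of receptor tyrosine kinase signalling, at 294 ± 27.9 FPKM. The ETS factors that act downstream of RET differed in level: Etv5 was at 109.9, 119.8 and 146 FPKM and Etv4 at 26.2, 26.7 and 45.9 FPKM. The progenitor factor Sox9 was at 81.9, 79.7 and 97.4 FPKM. For all 3 of these factors replicate 3 was highest. Dusp6, a phosphatase gene induced by ERK signalling, was also highest there, at 138, 158 and 189 FPKM. The chemokine receptor gene Cxcr4 was the lowest tip gene, with 1.97 ± 0.229 FPKM. In all, 15 of 18 tip genes were highest in replicate 3, against 28.8% of expressed genes, and 14 were lowest in replicate 1, against 35.0% of expressed genes. Replicate 3 was above replicate 2 for 16 of the 18 genes (45.8% of expressed genes) and above replicate 1 for 17 (47.0%). The shifts were small: the median tip gene lay at -0.15, -0.04 and 0.12 on the log2 scale relative to its own mean in replicates 1, 2 and 3. In such bulk libraries, fewer cells of a type and less RNA per cell cannot be told apart.

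The 17 stalk and duct genes were all expressed and formed the list with the highest median of the 13 cell type lists, 157.9 FPKM. Tight junction claudins and keratins led it. Cldn4 was at 412, 701 and 536 FPKM, and Cldn8 averaged 526 ± 13.7 FPKM. The kidney cadherin gene Cdh16 averaged 396 ± 52.1 FPKM. Elf3, an epithelial ETS factor, was at 84.4, 145 and 113 FPKM. Wnt7b, the stalk ligand that acts on the medullary stroma, was at 25.2, 39.96 and 31.5 FPKM, and Wnt9b, which signals to nephron progenitors, was at 9.79, 16.2 and 11.3 FPKM. Replicate 2 was highest for Cldn4, Elf3, Wnt7b and Wnt9b, and replicate 1 was lowest. Over the list, 14 of 17 genes were highest in replicate 2 (34.7% of expressed genes) and 14 were lowest in replicate 1 (35.0%). The epithelial mucin gene Muc1 had the widest range, at 14.2, 43.3 and 24.9 FPKM. The summed FPKM of tip genes divided by that of stalk and duct genes was 0.617, 0.501 and 0.629 in replicates 1, 2 and 3, lowest in replicate 2.

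Genes of differentiated collecting duct cells were present at lower levels. Of 17 principal cell genes 13 were expressed (76.5%). The water channel gene Aqp2 was at 98.0, 208 and 119 FPKM and Fxyd4, a regulator of the sodium pump, at 129, 190.4 and 136 FPKM. The sodium channel subunits were uneven: Scnn1g averaged 90.3 ± 18.4 FPKM and Scnn1b 76.1 ± 19.5 FPKM, while Scnn1a averaged 0.671 ± 0.201 FPKM and did not count as expressed. The vasopressin receptor gene Avpr2 averaged 24.0 ± 5.50 FPKM. The potassium channel gene Kcnj1 had no count in any control library, which by the limit of 3 counts allows up to 0.290 CPM (the count scaled by the library total) in replicate 1. Replicate 2 was highest for 12 of the 13 expressed principal cell genes, against 34.7% of expressed genes, and Aqp2 there was 2.12 times the level in replicate 1.

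Of 18 intercalated cell genes 13 were expressed (72.2%). The carbonic anhydrase gene Car2 was even at 149, 144 and 143 FPKM. Foxi1, the transcription factor that specifies intercalated cells, was at 38.2, 60.4 and 25.5 FPKM, and the ammonia transporter gene Rhcg was at 44.9, 92.2 and 49.5 FPKM. Proton pump subunits were low, with Atp6v1b1 at 6.65 ± 1.20 FPKM and Atp6v0d2 at 6.69 ± 2.06 FPKM. The transporter genes that tell the main types apart were lower still: Slc4a1 of type A cells averaged 0.190 ± 0.173 FPKM and Slc26a4 of type B cells 0.246 ± 0.158 FPKM, neither counted as expressed. Slc4a9, a bicarbonate transporter gene of the non-A types, was at 8.70, 14.4 and 8.77 FPKM. Replicate 2 was again highest, for 10 of the 13 expressed genes, against 34.7% of all expressed genes. Without replicate 1 or without replicate 3 it was highest for 11 of 13, against 54.2% and 51.5% of expressed genes.

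**Figure D2:**
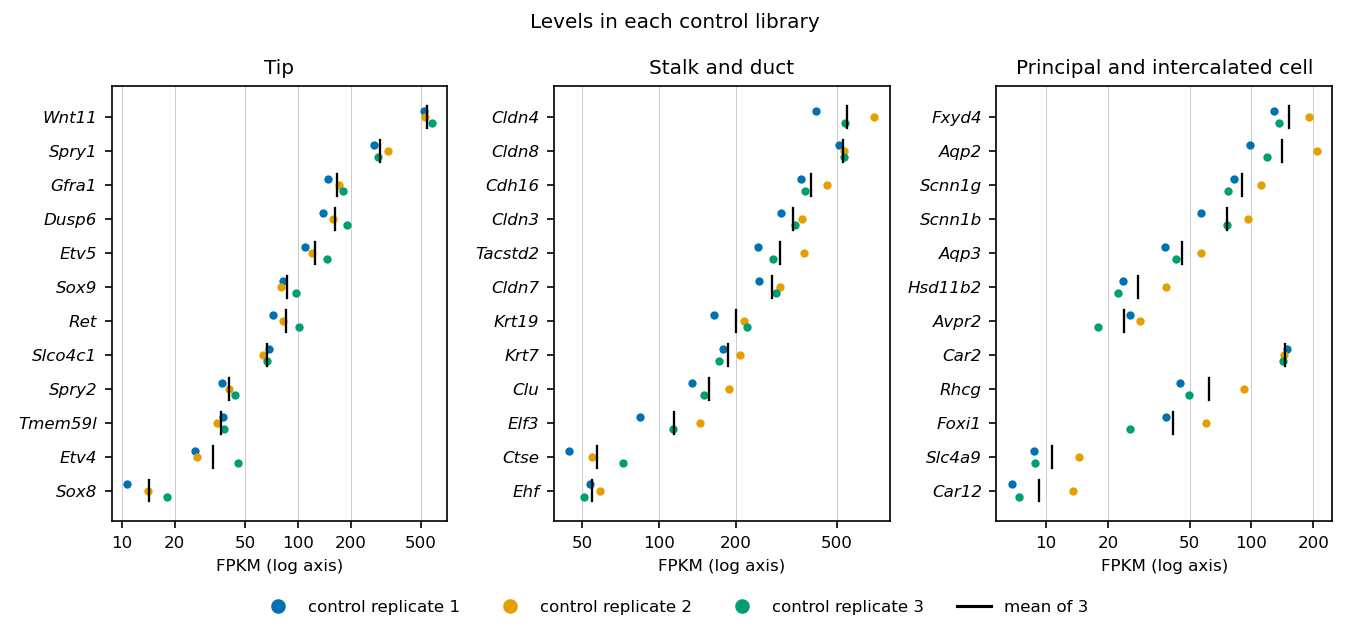
FPKM (log axis) of tip genes, stalk and duct genes, and principal and intercalated cell genes in each control library (coloured points); black bars are means of the 3 libraries. Ret, Etv4 and Etv5 are highest in replicate 3, and Aqp2, Rhcg, Foxi1 and Cldn4 are highest in replicate 2.

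Of 12 urothelial genes, which mark the lining of the renal pelvis and ureter, 8 were expressed (66.7%, near the 60.8% of all listed genes). Upk3a, a uroplakin gene, was at 175, 213 and 241 FPKM, above Upk1b (46.1 ± 12.7 FPKM), Upk1a (24.7 ± 6.26 FPKM) and Upk2 (4.26 ± 1.35 FPKM). The uroplakin genes were thus far apart, with Upk3a well above its partners. The basal keratin gene Krt5 averaged 0.345 ± 0.227 FPKM and the basal factor gene Trp63 1.53 ± 0.524 FPKM, and neither counted as expressed. Shh, the hedgehog ligand of the ureter and medullary duct, was at 3.10, 4.44 and 2.03 FPKM.

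Markers of other kidney cells were near 0 with few exceptions. Of 9 nephron progenitor markers 3 were expressed, led by Cited1 with 3.17 ± 0.819 FPKM; Six2 averaged 0.0293 ± 0.0507 FPKM, and Gdnf had no count. Of 12 listed nephron and podocyte markers 2 were expressed, Jag1 (8.38 ± 1.71 FPKM) and Slc34a1 (1.70 ± 0.497 FPKM). None of the 12 stromal markers was expressed, and the highest, the matrix gene Dcn, averaged 1.34 ± 0.508 FPKM. Their summed FPKM was 4.99, 4.64 and 9.65, highest in replicate 3. Of 9 endothelial markers Egfl7 was expressed at 32.95 ± 2.93 FPKM and Plvap at 4.02 ± 1.35 FPKM, while Pecam1, Cdh5, Tek and Tie1 averaged under 0.1 FPKM and Flt1 had no count. The level of Egfl7 therefore did not go with those of the defining endothelial genes.

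Blood cell markers differed between the libraries. The globin gene Hba-a1 had 3, 7 and 2589 counts in replicates 1, 2 and 3, and Hbb-bs had 2, 1 and 966. Alas2, the erythroid enzyme of haem synthesis, was at 0, 0.0941 and 5.28 FPKM. Each of these means was set by replicate 3 alone. Hba-a1 and Hba-a2 are near-identical, as are Hbb-bs and Hbb-bt, so the split of reads within each pair is uncertain. The 10 immune markers had 460, 608 and 1004 counts in all. Macrophage genes were highest in replicate 3: Cd68 was at 0.387, 2.44 and 6.56 FPKM and C1qc at 0.860, 0.507 and 6.36 FPKM. Without that library the mean of Cd68 was 1.41 and that of C1qc 0.684 FPKM. Ptprc, which encodes the leukocyte antigen CD45, was also highest in replicate 3 but more even, at 6.74, 8.19 and 8.59 FPKM. It supplied 410, 507 and 530 of the immune marker counts in replicates 1, 2 and 3. The libraries also differed in Y-linked RNA: Ddx3y was at 19.0, 20.5 and 7.70 FPKM. All 4 listed Y-linked genes were highest in replicate 2 (34.7% of expressed genes) and lowest in replicate 3 (36.0%). They share 1 chromosome, so they are not independent observations. The part of this difference in the other results was not tested.

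Among genes that the deposited annotation assigns to ligands, 100 of 314 were expressed, a share of 31.8% against 60.8% of all genes. Mdk, a growth factor that binds heparin, and Wnt11 were the most abundant signalling ligands of the lists. Mdk, which encodes midkine, was at 666, 573 and 598 FPKM, and its relative Ptn averaged 196 ± 16.52 FPKM. Npnt, which encodes nephronectin, the basement membrane ligand of an integrin on the mesenchyme, averaged 141 ± 25.9 FPKM. Nrtn, which encodes neurturin, a ligand of the GDNF family, was at 37.1, 38.1 and 46.2 FPKM. Gdnf itself had no count, so of this pair the transcript found in the epithelium was that of neurturin. Hbegf, an EGF family ligand, was at 30.04, 69.9 and 63.5 FPKM, lowest in replicate 1.

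Of 19 WNT genes 8 were expressed (42.1%, against 60.8% of all listed genes), and 7 had no count in any control library. Wnt11 was 20.8, 13.2 and 18.3 times the level of Wnt7b, the next in order, in replicates 1, 2 and 3. Wnt4 (14.7 ± 3.60 FPKM) and Wnt9b (12.4 ± 3.33 FPKM) followed and overlapped each other. Wnt5b, Wnt6, Wnt5a and Wnt10a lay between 2.91 and 5.03 FPKM. Of 19 listed FGF genes 5 were expressed (26.3%), the highest being Fgf18 with 4.89 ± 1.01 and Fgf9 with 3.92 ± 0.210 FPKM. Fgf10 had no count. No listed FGF gene therefore reached 10 FPKM. In the BMP, GDF and TGF-beta family 7 of 26 were expressed (26.9%). Bmp7, an epithelial factor that sustains nephron progenitors, was at 70.7, 73.5 and 88.1 FPKM and was 39.7 to 44.3 times the level of Bmp4. Gdf15, a stress-responsive member, was at 10.8, 31.9 and 43.1 FPKM and had the widest range of the expressed family members. Ephrin genes were led by Efna1 with 66.6 ± 10.3 FPKM, and the Notch ligand genes Jag1 (8.38), Dll1 (3.40) and Dll4 (1.67) were under 10 FPKM on average.

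**Figure D3:**
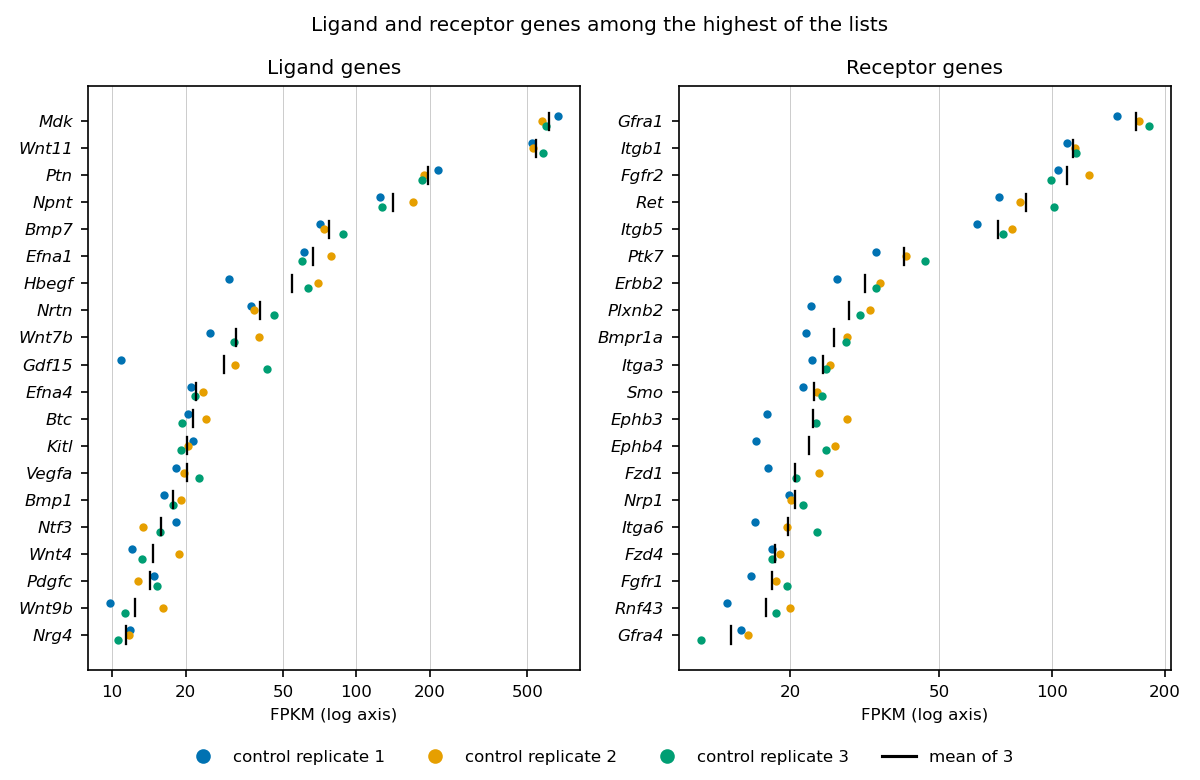
FPKM (log axis) of 20 ligand genes and 20 receptor genes, among the highest of the lists, in each control library (coloured points); black bars are means. Mdk and Wnt11 lead the ligands, Gfra1 leads the receptors, and Gdf15 and Hbegf have the widest spread among the ligands shown.

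Receptor genes of the deposited annotation were expressed in 164 of 579 cases (28.3%, against 60.8% of all listed genes). Gfra1 had the highest level of all receptors in the lists. Gfra4 averaged 13.9 ± 2.06 FPKM, while Gfra2 and Gfra3 had no count. GFRA2 is the co-receptor that neurturin is known to prefer, and its count of 0 allows up to 0.290 CPM in replicate 1. Of 42 listed receptor tyrosine kinase genes 18 were expressed (42.9%). Fgfr2, the FGF receptor that acts beside RET in branching, was at 104, 125 and 99.3 FPKM. It was above Ret in replicates 1 and 2, and in replicate 3 the ratio of Fgfr2 to Ret was 0.984, so the order of these 2 was not stable. Ptk7 (40.2 ± 5.98 FPKM), a planar polarity receptor, and Erbb2 (31.8 ± 4.37 FPKM) came next, and Met, the receptor of hepatocyte growth factor, averaged 13.1 ± 3.48 FPKM. Of the 18 expressed kinase genes 14 were lowest in replicate 1, against 35.0% of expressed genes.

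Of 17 WNT receptor genes 13 were expressed (76.5%). They were led by Fzd1 (20.7 ± 3.20 FPKM), Fzd4 (18.2 ± 0.560 FPKM) and Rnf43 (17.3 ± 3.32 FPKM), an E3 ligase that removes frizzled proteins from the surface. Bmpr1a, a type I BMP receptor, averaged 26.2 ± 3.58 FPKM and headed 9 expressed of 14 (64.3%). Ephb3 (23.1 ± 5.56 FPKM) and Ephb4 (22.5 ± 5.48 FPKM) were the highest of 8 expressed Eph receptor genes of 13 listed (61.5%). Integrin genes were led by Itgb1, at 109, 115 and 116 FPKM, with Itga3 (24.5 ± 1.43 FPKM) and Itga6 (19.8 ± 3.73 FPKM), the laminin-binding partners, below it. Itga8, the nephronectin receptor subunit of the mesenchyme, averaged 0.161 ± 0.101 FPKM. Of 28 Notch, hedgehog and guidance receptor genes 11 were expressed (39.3%), among them Smo (23.2 ± 1.40 FPKM) and Ptch1 (1.72 ± 0.296 FPKM).

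Transcription factors of the deposited annotation were expressed in 629 of 1057 cases (59.5%), close to the 60.8% of all listed genes. The most abundant were Fos, Egr1, Jun, Hes1, Junb and Pcbp1. Hes1, a Notch target and repressor, was at 322, 619.8 and 498 FPKM, lowest in replicate 1. Gata3 was ninth among them. Gata2 was at 50.6, 89.1 and 60.4 FPKM, and Gata3 was 2.30 to 3.58 times as high. Of 29 listed HOX genes 14 were expressed (48.3%), all of the B and D clusters. Hoxb7 was 2.90 to 3.19 times as high as Hoxd8 (49.3 ± 2.88 FPKM), and Hoxb9 (46.2 ± 1.90 FPKM), Hoxb6 (42.9 ± 2.32 FPKM) and Hoxb2 (38.9 ± 2.92 FPKM) lay close behind. The highest listed HOX gene outside those clusters, Hoxa11, was at 0, 0.0415 and 1.71 FPKM, with nearly all of its signal in replicate 3. None of the 14 expressed members had a 2-fold range, against 4.17% of expressed genes, and Hoxd1 came nearest at 6.33, 6.68 and 3.58 FPKM.

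In the SOX family 6 of 17 listed members were expressed (35.3%). Sox9 led, followed by Sox4 (47.2 ± 10.6 FPKM), Sox11 (17.1 ± 0.829 FPKM) and Sox8 (14.3 ± 3.74 FPKM). Of 24 ETS genes 15 were expressed (62.5%). Etv5 and Elf3 were the highest, and Ehf averaged 54.5 ± 4.09 FPKM. Among GATA, AP-2 and grainyhead-like factors 10 of 14 were expressed (71.4%). Tfcp2l1 (20.7 ± 2.35 FPKM), a collecting duct regulator, and Grhl2 (15.2 ± 1.38 FPKM), an epithelial barrier regulator, were below the GATA genes. Of 45 listed nuclear receptor genes 22 were expressed (48.9%). Apart from the immediate early gene Nr4a1 they were led by Nr1h2 (43.9 ± 3.93 FPKM) and Nr2f6 (42.1 ± 3.97 FPKM). Rarb, a retinoic acid receptor gene, averaged 15.8 ± 1.21 FPKM. A 2-fold range was found for 6 of the 22, among them Nr4a1 and Pparg (4.65, 7.33 and 2.98 FPKM), against 4.17% of expressed genes. This share is not adjusted for level, and Pparg had 163, 261 and 106 counts. Of all genes with a mean of 100 to 300 counts 7.71% had such a range, and at 30 to 100 counts 31.2%.

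Ash2l, the gene deleted in the other arm of the series, was at 53.0, 49.9 and 43.9 FPKM (1933, 1853 and 1624 counts) and ranked 2051. Its product belongs to the core of the enzyme complexes that methylate histone H3 on lysine 4. The other shared core subunits were expressed as well: Dpy30 averaged 103 ± 3.57 FPKM, Wdr5 39.4 ± 4.18 and Rbbp5 20.7 ± 3.18 FPKM. Men1 (55.2 ± 3.80 FPKM) and Cxxc1 (31.1 ± 3.77 FPKM), whose products belong to some of the complexes only, were in the same range. The catalytic subunit genes were much lower in FPKM. Setd1a averaged 2.52 ± 0.233 FPKM and was the only one of the 6 that counted as expressed, while Kmt2a, Kmt2b, Kmt2c, Kmt2d and Setd1b averaged 0.251 to 0.808 FPKM. FPKM depends on gene length, 5934 bases for Setd1a and 20394 for Kmt2d. In counts these 2 were alike, with 151, 145 and 173 for Setd1a and 125, 209 and 184 for Kmt2d. Both were below Rbbp5, with 655, 890 and 720 counts.

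All 18 S phase genes and all 18 genes of G2 and M phase were expressed. The replication clamp gene Pcna averaged 277 ± 36.6 FPKM and the ribonucleotide reductase gene Rrm2 162 ± 7.43 FPKM. The mitotic genes Ube2c and Ccnb1 were at 273, 235 and 223 FPKM and 241, 174 and 216 FPKM, both highest in replicate 1. That library was highest for 17 of the 18 G2 and M phase genes and for 12 of the 18 S phase genes, against 36.5% of expressed genes. The exception among the former was Mki67, at 5.13, 5.48 and 4.52 FPKM. The shift was small, with the median G2 and M phase gene at 0.15, -0.11 and -0.04 on the log2 scale relative to its own mean in replicates 1, 2 and 3.

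Immediate early genes are switched on within minutes of a stimulus, without new protein synthesis. They were among the most abundant transcripts and among the most uneven. The list of 18 also holds stress genes such as the heat shock genes Hspa1a and Hspa1b. Of the 18, 17 were expressed, and the median of the list was 167 FPKM. Fos was at 603, 1309 and 1597 FPKM, Egr1 at 628, 1059.6 and 1072 FPKM and Jun at 473, 940.4 and 973 FPKM in replicates 1, 2 and 3. Atf3, a stress-induced factor, was at 45.3, 176 and 179.6 FPKM. The feedback genes Zfp36, whose product destabilises mRNA, and Dusp1, a MAP kinase phosphatase, were at 163, 397 and 448 FPKM and 157, 336 and 432 FPKM. In each of these 6 genes replicate 1 was lowest. Over the list 15 of 17 were lowest in replicate 1, against 35.0% of expressed genes, and the median member lay at -0.89, 0.22 and 0.26 on the log2 scale relative to its own mean. The exceptions were the heat shock genes Hspa1a (86.3, 66.1 and 75.3 FPKM) and Hspa1b (43.3, 20.3 and 31.5 FPKM), near-identical copies whose split is uncertain. A 2-fold range was found for 12 of the 17, against 4.17% of expressed genes; without replicate 1 it was found for 1 of the 17, against 1.39%.

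**Figure D4:**
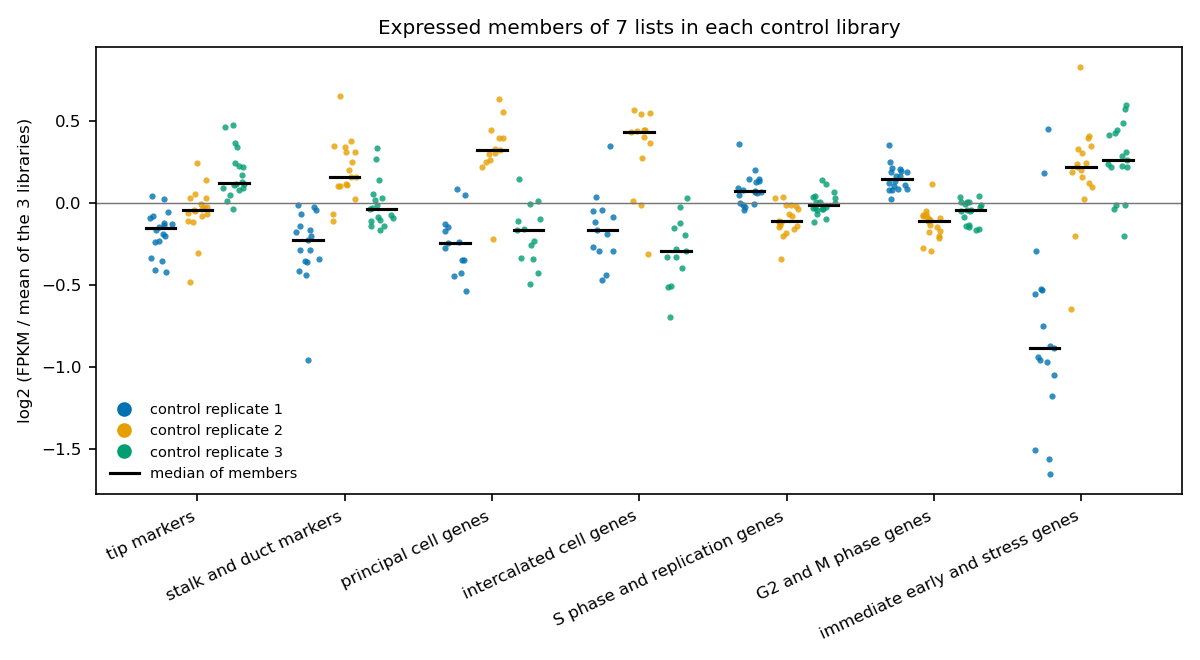
Each expressed member of 7 lists in each control library (coloured points), as log2 of its FPKM over its mean in the 3 libraries; black bars are medians over members. Immediate early and stress genes lie lowest in replicate 1 (median -0.89), tip genes highest in replicate 3 (median 0.12), and principal and intercalated cell genes highest in replicate 2 (medians 0.33 and 0.44).

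Promoter sequences of the immediate early list are shown because its members varied together. Of its genes 14, with 18 promoters, were in the RefSeq table of build GRCm38.p6, which holds 17054 promoters of 13517 listed genes. The 250 bases before each start were searched on both strands for TATAAA, for the AP-1 motif TGANTCA, for the CREB motif TGACGTCA and for the CArG box bound by serum response factor; a TATAAA can lie inside a CArG box, and the other motifs cannot contain one another. They were found in 8.26%, 5.27%, 2.23% and 1.37% of all promoters. In the list TATAAA was found in Fos, TGANTCA in none, TGACGTCA in Btg2 and Dusp1, and the CArG box in Egr2 and Zfp36. Bases further from the start were not searched, and Egr1 was not among the 14 genes. A gene without a match here may therefore still have such a site. The 4 genes with a match and a single start in the table are printed 5′ to 3′ on the gene's strand, with the match in capitals.
Fos, chr12:85473640-85473889, plus strand, TATAAA: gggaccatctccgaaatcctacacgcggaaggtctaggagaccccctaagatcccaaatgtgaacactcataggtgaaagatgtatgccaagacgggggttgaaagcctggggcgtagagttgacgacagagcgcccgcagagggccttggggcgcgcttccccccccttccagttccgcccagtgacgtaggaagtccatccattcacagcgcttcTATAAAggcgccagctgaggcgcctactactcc
Zfp36, chr7:28379229-28379478, minus strand, CArG box: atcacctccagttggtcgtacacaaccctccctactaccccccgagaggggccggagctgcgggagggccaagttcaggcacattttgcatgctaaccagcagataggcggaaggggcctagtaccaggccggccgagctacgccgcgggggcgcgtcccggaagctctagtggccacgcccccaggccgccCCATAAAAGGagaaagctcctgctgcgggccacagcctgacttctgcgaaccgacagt
Dusp1, chr17:26508473-26508722, minus strand, TGACGTCA: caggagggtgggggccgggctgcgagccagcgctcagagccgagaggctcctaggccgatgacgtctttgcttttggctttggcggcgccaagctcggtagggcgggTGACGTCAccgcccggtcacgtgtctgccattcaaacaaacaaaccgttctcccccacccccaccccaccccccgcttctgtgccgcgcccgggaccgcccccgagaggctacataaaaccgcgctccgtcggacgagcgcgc
Btg2, chr1:134079156-134079405, minus strand, TGACGTCA: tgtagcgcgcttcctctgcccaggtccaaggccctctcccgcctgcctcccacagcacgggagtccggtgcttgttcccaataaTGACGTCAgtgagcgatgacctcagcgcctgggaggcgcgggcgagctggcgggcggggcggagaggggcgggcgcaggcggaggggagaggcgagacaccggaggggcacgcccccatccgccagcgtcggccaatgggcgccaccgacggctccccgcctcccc
Counted back from the start, the first base of the match lies at 33 in Fos, 58 in Zfp36, 143 in Dusp1 and 166 in Btg2. In these windows the match is a description of letters, and no binding was measured. The levels of the 4 genes were lowest in replicate 1 alike: Btg2 was at 162, 378 and 359.6 FPKM, and the other 3 are given above.

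The spread between control libraries was small for most genes. The median coefficient of variation, the SD over the mean, was 11.3% over expressed genes, against 4.48% from counting error alone. The common biological coefficient of variation from edgeR, with an intercept as the only term, was 0.163. Spread fell with depth: genes with a mean of 10 to 30 counts had a median of 47.6%, and genes with at least 3000 counts had 7.21%. Pairs of libraries had a Pearson correlation across genes of 0.990 to 0.992 on log2(FPKM + 1), where genes are not independent replicates. No pair looked like 1 library deposited again, since the chi-square of its counts was 9.90 to 16.7 times its degrees of freedom.

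A 2-fold range was found for 436 expressed genes (4.17%), and for 157 to 230 when 1 library was left out, fewest without replicate 1. Replicate 1 was the lowest library for 212 of them, replicate 2 for 89 and replicate 3 for 135. Among annotated transcription factors 51 of the 629 expressed had such a range (8.11%), among ligands 20 of 100 and among receptors 24 of 164 (14.6%). These shares are not adjusted for level, and low genes vary more. Among expressed genes with a mean of at least 5 FPKM, the widest ranges were those of the chemokine genes Cxcl2, at 1.43, 4.47 and 9.93 FPKM, and Cxcl1, at 7.99, 32.99 and 52.8 FPKM. Their means without replicate 3 were 2.95 and 20.5 FPKM. Egr4, Rps2, Fosb, Ptger4, Gdf15, Atf3 and Tnfaip3 followed with replicate 1 lowest, and Sfta2 with replicate 3 lowest. The ribosomal protein gene Rps2 was at 48.8, 257 and 262 FPKM. Rps2 has near-identical processed copies, so its count is uncertain. At the other end, Ctsb, Rplp0, Spint1, Lyar and Clptm1 were the steadiest genes of at least 50 FPKM on average: the protease gene Ctsb was at 255, 256 and 256 FPKM, and the epithelial protease inhibitor gene Spint1 at 118, 118 and 118 FPKM.

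**Figure D5:**
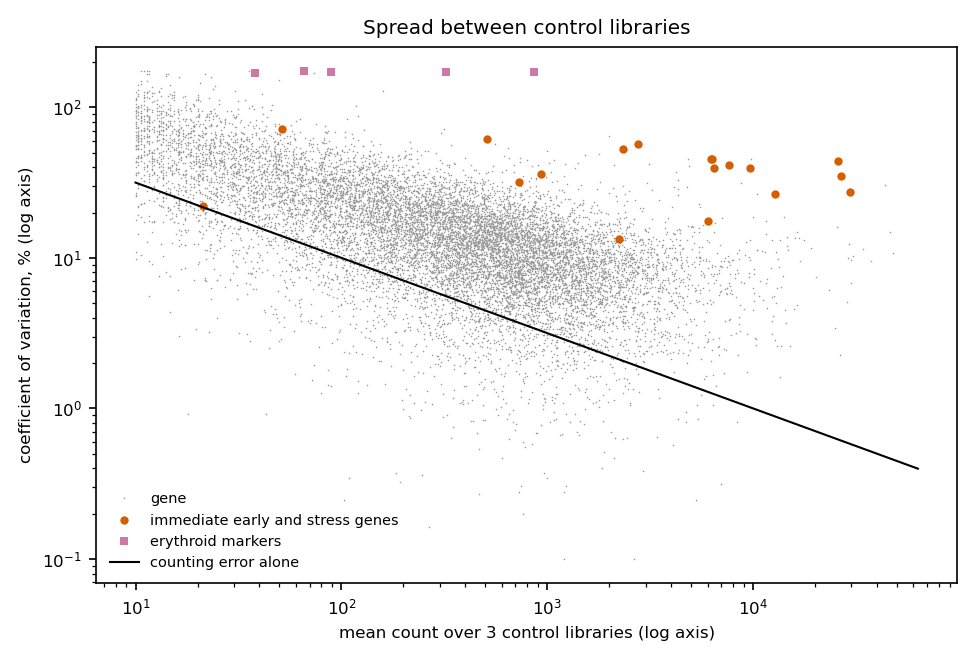
Coefficient of variation (%, log axis) against mean count (log axis) over the 3 control libraries for genes with a mean of at least 10 counts; the line is counting error alone, orange points are immediate early and stress genes and purple squares are erythroid markers. Most genes lie above the line, immediate early and stress genes mostly lie above the bulk of genes with like counts, and the erythroid markers lie at the top because their counts come from 1 library.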

How the data were processed

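RNA of the 3 control libraries was extracted with the mirVana kit and libraries were made with the TruSeq Stranded mRNA kit, per the labels' protocols. The authors deposited raw counts of reads for each gene and FPKM in separate tables, with a column for each library. The submitters' processing notes name the build GRCm39 and the tools HISAT2, Cufflinks, HTSeq and DESeq, but neither versions nor roles. Whether counting used strand is not stated, so a gene and its antisense partner may share reads. The deposited FPKM were checked against the counts: each equals the count divided by a gene length and by the library total, with a largest relative deviation of 2.47e-07, so they are a rescaling of the counts.

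Levels, ranks and ranges were computed from FPKM in Python 3.11.15 with pandas 2.3.3. Dispersion was estimated from the counts with edgeR 4.0.16 in R 4.3.3, with TMM scaling and filterByExpr, and that step was tested on simulated data. DESeq2 1.42.0 gave alternative size factors. No test between groups was run. Library totals of 10359475 to 10538314 counts set the precision, and 3 counts (0.285 to 0.290 CPM, counts scaled to library size) are taken as the limit for a gene at 0. Intervals and limits cover counting error only.

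The groups came from the labels. The cells, the 37 gene lists and the rules were chosen with earlier results of these data known. Genes named are the 6 markers, Ash2l, the 15 highest, the 3 highest of each list (9 for lists of identity, ligands, receptors and factors, and all members of lists of up to 7), the 10 highest annotated transcription factors, ligands and receptors, the 10 widest ranges among expressed genes with a mean of at least 5 FPKM and the 5 smallest spreads at 50 FPKM. Genes outside that rule that appear in the text were picked with their values in view. A few genes that the rule names are not reported here. Alternatives were other minimum levels, TPM, CPM, TMM scaling, medians, and leaving out each library. Counts of list members highest or lowest in 1 library were set beside TMM scaling and the pairs of libraries after the data were seen.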

Additional observations from a re-analysis of the deposited data

How the results depend on the processing

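The number of expressed genes stayed between 9309 and 12144 under every alternative tried, against 10453. The 436 genes with a 2-fold range became 741 at a minimum of 0.5 FPKM in each library and 2319 at a minimum of 1 count, and 157 to 230 when 1 library was left out, lowest without control replicate 1; fewer libraries give fewer pairs to differ. The share of the 100 highest genes was 14.78% when taken on CPM, against 18.56% of summed FPKM. The median coefficient of variation of 11.3% was 10.6% at 2 FPKM, 12.8% at 10 counts and 8.50% to 9.80% with 1 library left out. The common biological coefficient of variation of 0.163 was 0.197 with no filter on low counts and 0.145 to 0.178 with 1 library left out. Under TMM scaling none of the 289 genes named by rule moved in level by over 1 SD, while ranking by CPM moved the rank of 211. Leaving out control replicate 3 took the mean of Hba-a1 from 147.5 to 0.853 FPKM and that of Hbb-bs from 48.1 to 0.225 FPKM. Leaving out members shared between lists moved the median of 16 of 27 lists. The immediate early and stress genes with a 2-fold range fell from 12 to 1 without control replicate 1, and were 11 without replicate 2 or 3. Depth limits low genes: at a mean of 10 to 30 counts, counting error alone gives a coefficient of variation of 24.0%. No paired analysis was possible because 1 group alone was described and no test was run.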

Other observations

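No list was made for chemokine and NF-kB target genes, and several were present and uneven in the control libraries. They were chosen after their values were seen, and no test was run. Nfkbia, the inhibitor that NF-kB induces against itself, was at 97.8, 222 and 245 FPKM in control replicates 1, 2 and 3. Ccl20 was at 4.45, 12.9 and 12.5 FPKM, Cxcl10 at 3.16, 9.48 and 9.16 FPKM and Nfkbiz at 7.49, 19.6 and 21.0 FPKM. Replicate 1 was lowest for all 4 genes, for 15 of 17 expressed immediate early and stress genes and for 35.0% of expressed genes. As the 4 were picked with their values in view, their count adds no support to that pattern. The chemokine gene Cxcl12, a member of the list of other growth factor ligands, was lowest in replicate 2, at 2.33, 1.51 and 3.52 FPKM. The macrophage chemokine genes Ccl3 (0.855, 0 and 3.85 FPKM) and Ccl4 (0.146, 0.288 and 4.47 FPKM), were highest in replicate 3, where the macrophage markers were also highest; without that library their means were 0.428 and 0.217 FPKM.

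Several secreted peptides and growth regulators were also abundant, again named after their values were seen. Apela, which encodes a ligand of the apelin receptor, was at 49.5, 69.9 and 75.1 FPKM. Sct, which encodes secretin, was at 57.8, 57.9 and 54.2 FPKM, and Stc1, which encodes stanniocalcin, at 41.4, 53.4 and 42.7 FPKM. Sct had the smallest spread of these. The osteopontin gene Spp1 was at 28.1, 61.6 and 88.6 FPKM and the adrenomedullin gene Adm at 20.8, 45.8 and 44.3 FPKM, both lowest in replicate 1. Stra6, which encodes the retinol transporter, averaged 39.8 ± 6.57 FPKM (SD, n = 3). The inhibitor genes Id2 and Id1 averaged 747 ± 139 and 438 ± 143 FPKM (SD, n = 3), so that 3 members of the Id family were among the 100 highest genes. Myc was at 31.1, 86.4 and 94.6 FPKM and Mycn at 48.9, 56.0 and 72.1 FPKM: Myc had a 2-fold range and Mycn did not.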
